A study of Mus musculus with 6 samples.

Results

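The transcription factor p53 and the inhibitors of cyclin-dependent kinases are described here by 10 genes in mouse cardiac mesenchymal cells, which are stromal cells grown from the heart. The genes were chosen by symbol, namely Trp53, Cdkn1a, Cdkn2a, Cdkn2b, Mdm2, Ccng1, Bax, Bbc3, Sesn1 and Gdf15, and all 10 were found among the 53460 genes of the deposited table. RNA was sequenced from 3 libraries of sham-operated C57BL6/J hearts, which had the chest opened but no infarction, and from 3 libraries of hearts subjected to 60 min of coronary occlusion and then reperfusion, called infarct libraries here. Cells of both groups were harvested at 28 days after surgery, and the fraction that attached late to the culture plastic was used. The sample titles of both groups all carry P4, which may stand for the passage in culture and is not explained in them. Whether each library stands for its own animal or culture is not stated in the labels, and the p-values below therefore refer to the scatter among these libraries, which may be technical. The comparison asks whether the RNA of these genes differs with the state of the heart that the cells came from. The values are FPKM, which are fragment numbers scaled to transcript length and to library size, so levels of different genes can be set side by side per length.

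p53 is held low in resting cells by the ubiquitin ligase Mdm2, which p53 itself induces, and it accumulates after DNA damage and other stress. Its targets then stop the cell cycle, start repair or start apoptosis. Cells that are passaged in culture or stressed for long can instead enter senescence, a stable arrest in which the products of Cdkn1a, Cdkn2a and Cdkn2b block the kinases that inactivate the Rb proteins.

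The libraries were alike in depth but not in composition, and some differences of composition followed the groups. Each held 12539 to 12695 genes at 1 FPKM or more, and the steps between the lowest values implied 22400000 to 31000000 fragments per library. The 8 stromal markers summed to 2542 to 3724 FPKM in sham and 2700 to 3940 FPKM in infarct libraries. Among them, every infarct value of Thy1 and of Dcn lay below every sham value, while the other stromal markers overlapped. Thy1 was at 309, 282 and 279 FPKM in sham and at 196, 264 and 215 in infarct libraries. Dcn was at 34.4, 18.45 and 27.1 FPKM in sham and at 13.7, 18.16 and 18.44 in infarct libraries. Of the markers of other cells, the macrophage genes Ptprc and Adgre1 stayed at or under 0.0528 FPKM, the cardiac myosin genes Myh6 and Myh7 at or under 0.00547 and the lymphocyte genes Cd3e and Cd3g were listed at 0. As a whole, the 6 macrophage markers summed to 10.3 to 29.4 FPKM in sham and 15.3 to 30.2 in infarct libraries, mostly from Lyz2, and the 6 cardiomyocyte markers to 17.5 to 54.0 and 14.9 to 21.2, mostly from Tnnt2. The 5 pericyte and smooth muscle markers summed to 6.30 to 33.0 and 5.11 to 25.3 FPKM, and the 5 lymphocyte markers to at most 0.0818. The 10 endothelial markers summed to 93.5, 409 and 260.3 FPKM in sham libraries 1 to 3 and to 28.0, 11.05 and 14.1 in infarct libraries 1 to 3. The labels call the mice male, yet Xist, the RNA of the inactive X chromosome in female cells, was at 63.1 to 111 FPKM in all 6 libraries. The Y-linked genes Ddx3y, Eif2s3y, Kdm5d and Uty were at 4.05 to 10.6 FPKM in infarct library 1, at 0.451 to 2.27 in infarct libraries 2 and 3 and at 0.225 or less in the sham libraries. Since every library goes against the label, no result can be given without such libraries. In the endothelial sum and in Thy1, Dcn and Xist every sham library was above every infarct library. In each Y-linked gene every sham library was below. These differences run along the groups and cannot be told apart from the state of the heart. Their part in the levels of the 10 genes was not tested. The 13 proliferation markers, among them Mki67 and Top2a, summed to 452 FPKM in sham library 2 and 511 in infarct library 1, against 188 to 282 in the other 4 libraries.

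p53 recognises a pair of like decamers in DNA, and the promoters that hold such a pair are shown. The p53 consensus decamer reads the same on both strands, so a single scan covers both. The 10 genes have 16 promoter windows, and 6 of them held it, 1 each of Trp53, Cdkn1a, Mdm2, Ccng1, Bax and Sesn1, each window running from 250 bases before to 50 after an annotated start (RefSeq, GRCm38.p6). Of all 32851 such windows in the mouse annotation, 8.36% held it. Requiring a pair of decamers with at most 1 mismatch in all and at most 1 base between them left 58 windows, or 0.177% of all. Among them were 3 of the 16 windows, those of Cdkn1a, Ccng1 and Bax. No window of Bbc3, Gdf15, Cdkn2a or Cdkn2b held a decamer. The 250 bases before each of these starts follow, 5′ to 3′ on the strand of the gene, with the decamer pair in capitals.

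Cdkn1a: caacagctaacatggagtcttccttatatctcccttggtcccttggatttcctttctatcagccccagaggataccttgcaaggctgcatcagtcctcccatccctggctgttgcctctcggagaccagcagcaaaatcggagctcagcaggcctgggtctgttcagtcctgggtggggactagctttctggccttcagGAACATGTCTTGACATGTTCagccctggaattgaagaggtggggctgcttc

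Ccng1: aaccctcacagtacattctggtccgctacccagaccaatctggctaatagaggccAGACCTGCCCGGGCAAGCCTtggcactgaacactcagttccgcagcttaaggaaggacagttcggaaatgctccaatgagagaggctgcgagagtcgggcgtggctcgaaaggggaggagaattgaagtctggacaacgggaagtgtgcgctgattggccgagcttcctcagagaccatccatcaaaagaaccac

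Bax: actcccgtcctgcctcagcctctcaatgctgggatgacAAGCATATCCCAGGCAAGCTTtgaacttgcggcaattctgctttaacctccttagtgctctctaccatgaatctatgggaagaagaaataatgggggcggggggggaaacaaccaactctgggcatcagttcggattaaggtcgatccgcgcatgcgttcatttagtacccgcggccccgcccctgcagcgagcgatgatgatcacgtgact

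The Cdkn1a stretch lies at chr17:29090729-29090978 on the plus strand, and its pair spans bases 51 to 32 before the start, with no spacer. Another annotated start of Cdkn1a lies downstream, and the 250 bases before it, at chr17:29093519-29093768, held no decamer and no pair. The Ccng1 stretch lies at chr11:40755287-40755536 on the minus strand, and its pair spans bases 195 to 176 before the start, also with no spacer. The Bax stretch lies at chr7:45466899-45467148 on the minus strand, and its pair spans bases 212 to 192 with 1 base between the decamers. A match is a description of the letters in these windows and says nothing on binding in these cells, and sites outside the windows were not searched.

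All 10 genes passed the filter of 1 FPKM in at least 3 libraries, and none passed the test of a difference between the groups. In limma on log2(FPKM + 1), fitted over 12716 genes with Benjamini-Hochberg adjustment, 0 of the 10 passed an adjusted p of 0.05, where 0.0236% of all genes did, and 0 had an unadjusted p under 0.05, where 3.59% of all genes did. The same fit called 0 of the 9 tested endothelial markers, although the endothelial sums were 93.5 to 409 FPKM in sham and 11.05 to 28.0 in infarct libraries. A count of 0 called in limma therefore does not show that the 10 genes were unchanged. In the authors' deposited table, 0 of the 10 had a q under 0.05, where 1.66% of 14922 genes did, and the lowest q among them was 0.398, for Gdf15. Of the endothelial markers, that table gave Pecam1, Cdh5, Emcn, Kdr, Tek, Flt1, Egfl7, Esam and Erg a q of 0.00178 each. Tie1 had a q of 0.334 there. The sham and infarct values overlapped for each of the 10 genes, while they did not for 7.82% of all genes tested. The changes ran from -0.13 for Sesn1 to 0.40 for Gdf15, with a median of 0.10 and 9 of 10 positive, beside a median of 0.02 over all genes tested, of which 55.3% were positive. The exact two-sided permutation test of single genes cannot go below 0.1 with 3 libraries against 3, and its smallest value here was 0.2, for Gdf15. The 95% confidence intervals of the changes lay between -0.47 and 0.93 on the log2(FPKM + 1) scale, so a change of 1 or more lay outside the interval of each of the 10 genes. These intervals are not adjusted for the number of genes.

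**Figure D1:**
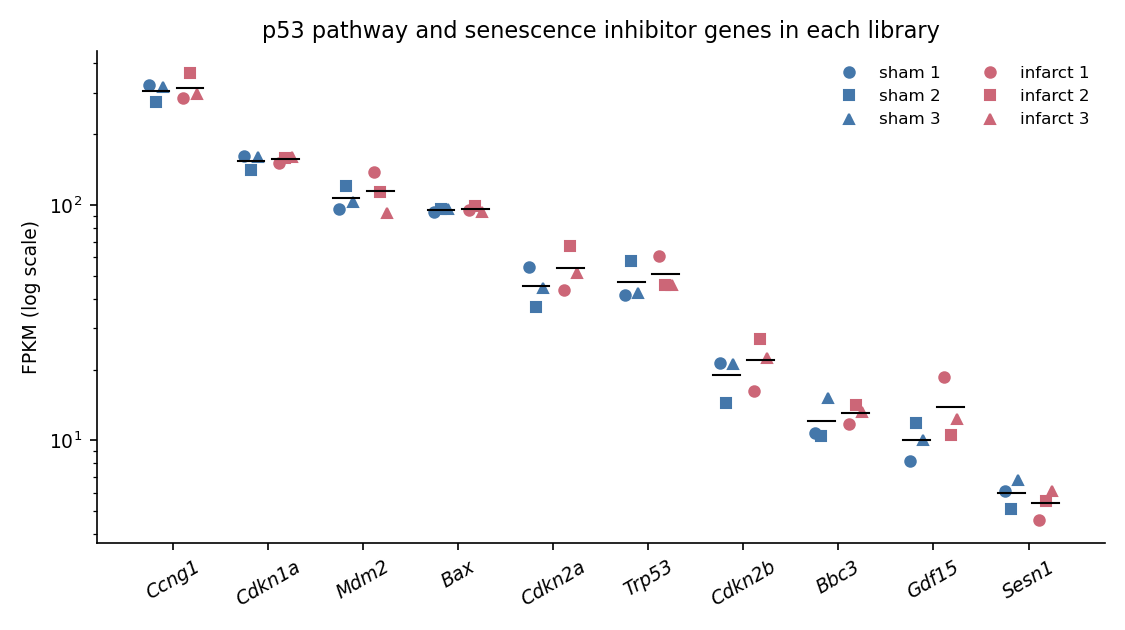
FPKM (log axis) of the 10 genes in each of the 6 libraries, ordered by mean level, with sham libraries in blue, infarct libraries in red and black lines at the group means. Levels run from 363.5 FPKM for Ccng1 in infarct library 2 to 4.58 FPKM for Sesn1 in infarct library 1, and the groups overlap for each gene.

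**Figure D2:**
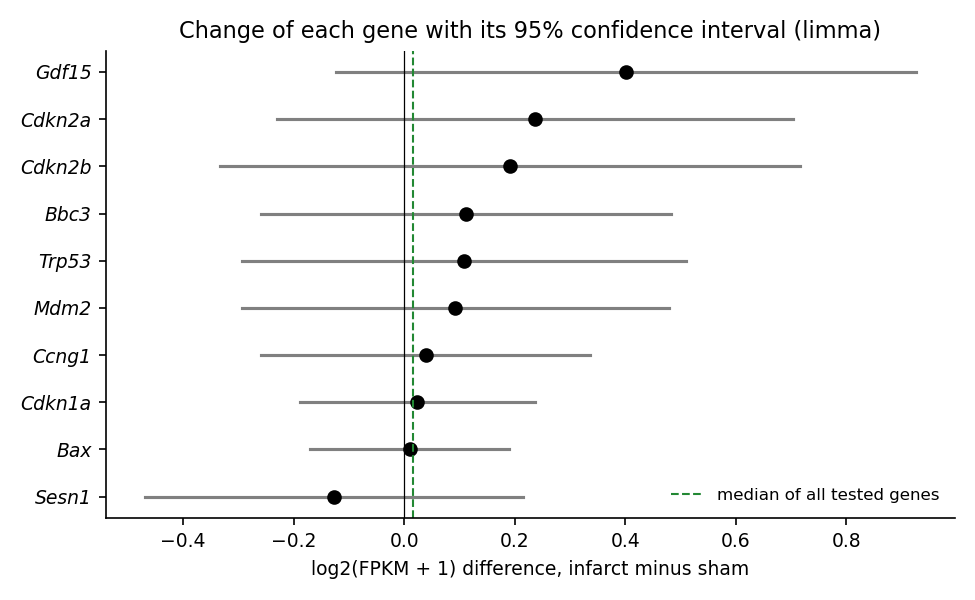
Difference of log2(FPKM + 1), infarct minus sham, for each gene (points) with its 95% confidence interval from limma (lines). Every interval includes 0, and the dashed line at 0.02 is the median of all genes tested.

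Trp53, the gene of p53 itself (chromosome 11, 69580359 to 69591873, GRCm38), had FPKM of 41.7, 57.7 and 42.1 in the sham libraries, in the order 1 to 3, and of 60.6, 45.8 and 45.9 in the infarct libraries in the same order. Sham library 2 and infarct library 1 were above the other 4 libraries, which lay close together. The group levels were 47.2 ± 9.10 and 50.8 ± 8.54 FPKM (mean ± SD of n = 3 libraries, here and in what follows), a difference of 0.11 on the log2(FPKM + 1) scale (SE 0.17, limma adjusted p of 1.00). Mdm2, the gene of the ubiquitin ligase that degrades p53 (chromosome 10, 117688875 to 117710758), was at 96.7, 121 and 102.7 FPKM in sham and at 138, 113 and 92.8 FPKM in infarct libraries. The same libraries, sham 2 and infarct 1, held its highest values, infarct library 2 lay between sham libraries 2 and 3, and the change was 0.09 with a confidence interval from -0.29 to 0.48. The FPKM ratio of Mdm2 to Trp53 stayed between 2.02 and 2.47 in the 6 libraries, at 2.28 ± 0.172 in sham and 2.26 ± 0.227 in infarct libraries. The log2 ratio differed by -0.02 between the groups, with an exact two-sided permutation p of 0.9 and the same value after adjustment over the 3 ratios tested.

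Among the targets that stop the cell cycle, Cdkn1a encodes p21, an inhibitor of cyclin-dependent kinases and the best known p53 target (chromosome 17, 29090976 to 29100727). It was at 162, 141 and 159.7 FPKM in sham and at 151, 159 and 159.4 FPKM in infarct libraries. Its lowest value, in sham library 2, was followed by that of infarct library 1, and the highest value was 1.15 times the lowest. An annotated antisense gene, AC167363.2, overlaps its locus, and the labels do not tell if counting used the strand. The groups stood at 154 ± 11.5 and 156.4 ± 4.61 FPKM, a log2 change of 0.02 with a confidence interval from -0.19 to 0.24. Ccng1, which encodes cyclin G1, a p53 target that acts on Mdm2 through a phosphatase (chromosome 11, 40748552 to 40755311), was the most abundant of the 10. It was at 323, 275 and 316 FPKM in sham and at 284, 363.5 and 295 FPKM in infarct libraries, a mean above that of 98.5% of the genes tested. Sham library 2 and infarct library 1 again held the lowest values, and the log2 change was 0.04 with a confidence interval from -0.26 to 0.34.

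The neighbouring genes Cdkn2a and Cdkn2b encode the INK4 inhibitors of the kinases that pair with D-type cyclins. Cdkn2a also encodes p19Arf, which binds Mdm2, from another first exon, and the FPKM of the gene does not separate p16Ink4a from p19Arf. Cdkn2a (chromosome 4, 89274471 to 89294653) was at 54.8, 36.9 and 44.5 FPKM in sham and at 43.5, 66.8 and 51.3 FPKM in infarct libraries. Cdkn2b, the gene of p15Ink4b (chromosome 4, 89306299 to 89311039), was at 21.2, 14.4 and 21.2 FPKM in sham and at 16.2, 27.0 and 22.5 FPKM in infarct libraries. For both genes sham library 2 was lowest, infarct library 1 next and infarct library 2 highest. The highest value was 1.81 times the lowest for Cdkn2a and 1.88 times for Cdkn2b, while their ratio stayed between 2.10 and 2.69. Group levels were 45.4 ± 8.95 and 53.8 ± 11.9 FPKM for Cdkn2a and 18.9 ± 3.95 and 21.9 ± 5.43 FPKM for Cdkn2b. The log2 changes were 0.24 with a confidence interval from -0.23 to 0.70 and 0.19 with an interval from -0.33 to 0.72. These values moved with single libraries. The change of Cdkn2a was 0.072 without infarct library 2, 0.10 without sham library 2 and 0.38 without sham library 1 or without infarct library 1. That of Cdkn2b was 0.032 without infarct library 2, 0.015 without sham library 2, 0.28 without sham library 1 and 0.38 without infarct library 1. The log2 ratio of Cdkn2a to Cdkn2b differed by 0.04 between the groups (exact permutation p of 0.7, 0.9 after adjustment over the 3 ratios).

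Of the targets that start apoptosis, Bax encodes a protein that opens the outer mitochondrial membrane (chromosome 7, 45461697 to 45466898). It was at 93.5, 96.3 and 96.6 FPKM in sham and at 95.7, 99.4 and 93.4 FPKM in infarct libraries. The SD over the 6 libraries was 2.36% of the mean, less than for all but 0.252% of the genes tested, and the log2 change was 0.01 with a confidence interval from -0.17 to 0.19. The table gives Bax a merged locus of 64.6 kb that holds 6 other annotated genes, among them Ppp1r15a and Nucb1, so its reads are less certain than those of the other members. Bbc3, the gene of PUMA, which binds and blocks the survival proteins of the BCL2 family (chromosome 7, 16308393 to 16318205), was at 10.8, 10.46 and 15.1 FPKM in sham and at 11.8, 14.1 and 13.2 FPKM in infarct libraries. Sham library 3 was the highest and sham library 2 the lowest, so the sham values spanned the infarct ones. Its groups stood at 12.1 ± 2.61 and 13.05 ± 1.21 FPKM, a change of 0.11 with a confidence interval from -0.26 to 0.48. The ratio of Bax to Bcl2, the gene of a survival protein, ran from 9.78 to 11.99 in the 6 libraries, and its log2 value differed by -0.06 between the groups (exact permutation p of 0.7, 0.9 after adjustment over the 3 ratios).

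Sesn1 and Gdf15 are stress-responsive targets with roles in metabolism. Sesn1, the gene of sestrin 1, which restrains the growth kinase mTORC1 (chromosome 10, 41809935 to 41908424), was at 6.08, 5.10 and 6.81 FPKM in sham and at 4.58, 5.51 and 6.12 FPKM in infarct libraries. It was the least abundant of the 10, with a mean above that of 34.6% of the genes tested, and infarct library 1 and sham library 2 were lowest. Another annotated gene, 9930024M15Rik, overlaps it on the same strand, so some of its reads are uncertain. Its change of -0.13, with a confidence interval from -0.47 to 0.21, was the 1 negative change of the 10. Gdf15, which encodes a secreted factor of the TGF-beta superfamily that rises under cellular stress (chromosome 8, 70629393 to 70632456), was at 8.16, 11.9 and 10.1 FPKM in sham and at 18.6, 10.5 and 12.4 FPKM in infarct libraries. Infarct library 1 stood above all others, while infarct library 2 lay below sham library 2. Gdf15 had the largest change of the 10, at 0.40 (SE 0.22, confidence interval from -0.12 to 0.93), and limma gave it an unadjusted p of 0.113 and an adjusted p of 1.00. It also varied most, with a highest value 2.27 times the lowest and an SD of 29.96% of the mean. Without infarct library 1 its change was 0.18.

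In order of mean FPKM the genes ran Ccng1, Cdkn1a, Mdm2, Bax, Cdkn2a, Trp53, Cdkn2b, Bbc3, Gdf15 and Sesn1. Neighbours in this order were compared within libraries by an exact two-sided sign-flip permutation test over the 6 libraries, adjusted over the 9 pairs. The order and the direction of each pair come from the same libraries, so the p-values describe how steady a difference was across libraries and are no independent test of the order. In 6 of the 9 pairs the higher gene was higher in 6 of 6 libraries, with an exact p of 0.0312 and 0.0469 after adjustment, and 0.0312 is the smallest p that 6 libraries can give. The 3 pairs that did not pass were Mdm2 and Bax (higher in 5 of 6 libraries, exact p of 0.0625, 0.0804 after adjustment), Cdkn2a and Trp53 (4 of 6, exact p of 1.0) and Bbc3 and Gdf15 (4 of 6, exact p of 0.594, 0.668 after adjustment). The mean log2 difference was 0.99 ± 0.11 (SD, n = 6) between Ccng1 and Cdkn1a and 1.24 ± 0.51 between Trp53 and Cdkn2b. Leaving out single libraries changed the order in 4 of 6 cases, with Gdf15 above Bbc3 when sham library 3 was omitted, and Trp53 above Cdkn2a when sham library 1 or either of infarct libraries 2 and 3 was omitted.

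In most of the 10 genes, sham library 2 and infarct library 1 lay on the same side of the other 4 libraries, across the groups. In sham library 2 and infarct library 1 both values lay above the other 4 libraries for Trp53 and Mdm2, and below them for Cdkn1a, Ccng1, Sesn1, Cdkn2a and Cdkn2b. That is 7 of the 10 genes, beside 40.0% of all genes tested, with 2 above (19.6% of all genes) and 5 below (20.4%). Both libraries were singled out after the values were seen, the 10 genes are not independent of each other, and no test was made of this pattern. Relative to the mean of the 6 libraries, Trp53 was at 118% in sham library 2 and 124% in infarct library 1, and Cdkn2b at 70.4% and 79.3%. Bax, at 100.5% and 99.9%, lay with the other libraries. Gdf15, at 99.9% and 155.5%, and Bbc3, at 83.1% and 93.4%, did not follow the pattern either. The same libraries held the highest summed proliferation markers, given above, and all 13 of these markers were highest there. Sham library 2 also held the highest endothelial sum, although Kdr, Tek and Flt1 were highest in sham library 3. Infarct library 1 held the highest Y-linked genes. In a bulk sample, fewer cells of a type and less RNA per cell cannot be told apart, and the part of these differences in the levels of the 10 genes was not tested. With both libraries left out, a choice made after seeing the data, 0 of the 10 genes passed in limma (0 at an unadjusted p under 0.05), and the change of Gdf15 was 0.30 and that of Cdkn2a 0.24.

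**Figure D3:**
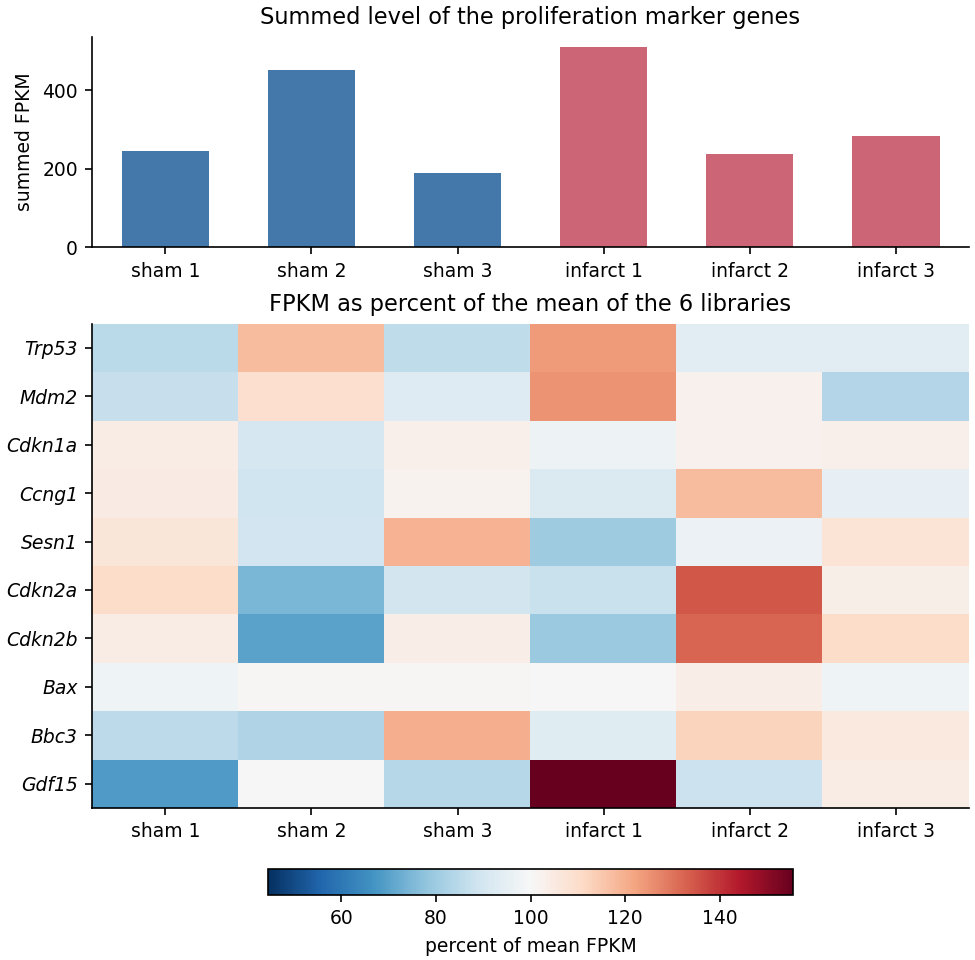
Summed FPKM of the 13 proliferation markers per library (bars, top) and FPKM of each of the 10 genes as percent of its mean over the 6 libraries (colours, bottom). Sham library 2 and infarct library 1, with 452 and 511 FPKM of proliferation markers, are above the other libraries for Trp53 and Mdm2 and below them for Cdkn1a, Ccng1, Sesn1, Cdkn2a and Cdkn2b.

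The other genes of the pathway were taken from 8 lists with 143 different genes, of which 125 passed the filter. Of these, 0 passed an adjusted p of 0.05 in limma over all genes, 5 had an unadjusted p under 0.05, and their median change was 0.05. Of the 32 other p53 targets, all 32 were tested, 17 changes were positive and 15 negative, and the median was 0.01. The 3 with the smallest p were Perp, which encodes a membrane protein of desmosomes and apoptosis, with 9.45 ± 4.13 FPKM in the sham group and 5.47 ± 0.729 in the infarct group, the antiproliferative gene Btg2 at 35.1 ± 7.70 and 28.6 ± 4.15, and the stress gene Gadd45a at 19.6 ± 4.13 and 16.0 ± 3.89. In the authors' deposited table Perp had a q of 0.0304, the 1 call among these 32, beside 1.66% of all genes in that table. Sham library 3, at 4.88 FPKM of Perp, lay within the infarct range of 4.63 to 5.94.

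The groups did not overlap for 7 of the 125 genes, or 5.6%, beside 7.82% of all genes. Of the 20 tested activators, cofactors and negative regulators of p53 none passed, with 13 positive changes and a median of 0.02. Ppp1r13b, the gene of ASPP1, which steers p53 towards its apoptosis targets, was at 3.22, 4.53 and 5.20 FPKM in sham and at 2.94, 2.54 and 2.29 FPKM in infarct libraries. All 3 infarct values lay below all sham values, and the change was -0.55 with an unadjusted p of 0.0146 and an adjusted p of 0.999 by limma. Hipk2, a kinase that phosphorylates p53, was at 12.4 ± 1.62 and 14.4 ± 1.47 FPKM and Twist1, a repressor of the pathway, at 17.6 ± 0.893 and 19.8 ± 2.45. Of the p53 relatives, Trp63 and Trp73 stayed under 1 FPKM and were not tested.

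The 15 tested regulators of the Cdkn2a locus, many of them Polycomb proteins that silence it, gave 11 positive changes and a median of 0.07, and none passed. Cbx8, a Polycomb reader of histone methylation, was at 3.68, 3.31 and 3.55 FPKM in sham and at 6.98, 4.17 and 6.56 FPKM in infarct libraries. The groups did not overlap, and limma gave a change of 0.59 (SE 0.18), an unadjusted p of 0.0139 and an adjusted p of 0.987. Rnf2, the ubiquitin ligase of Polycomb complex PRC1, was at 16.7 ± 2.05 and 20.8 ± 1.60 FPKM, and Ets2, an activator of the Cdkn2a promoter, at 5.63 ± 0.197 and 4.32 ± 0.615, also without overlap. The 5 genes of the 125 with an unadjusted p under 0.05 were Ppp1r13b, Cbx8, Rnf2, Ets2 and Il6, beside 3.59% of all genes.

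Of the 18 tested CDK inhibitors, cyclins, kinases and Rb proteins none passed, with 14 positive changes and a median of 0.06. The 3 with the smallest p were Ccng2 at 13.8 ± 1.96 and 16.0 ± 1.51 FPKM, E2f3 at 8.39 ± 0.143 and 9.16 ± 0.325, whose groups did not overlap, and Ccne1 at 6.43 ± 2.50 and 7.58 ± 0.826. The cyclin D1 gene Ccnd1, named here after its values were seen, was at 487, 328 and 505.5 FPKM in sham and at 347, 540.1 and 453 FPKM in infarct libraries. Ccnd1, Ccnd2 and Cdk6 were lowest in sham library 2 and infarct library 1, while Cdk2, Cdk4, Ccne1 and Ccne2 were highest there. In that list 7 genes were above the other libraries in both and 4 below, which is 61.1% of its 18 genes beside 40.0% of all genes. The same share was 43.8% in the other p53 targets, 45.0% in the p53 regulators, 40.0% in the regulators of the Cdkn2a locus, 11.1% in the BCL2 family and 47.1% in the secretory and structural genes of senescence.

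The BCL2 family gave 9 tested genes, 4 positive changes and a median of -0.0044, and none passed. Bid, a BH3 protein that activates Bax, was at 4.34 ± 1.24 and 5.87 ± 0.806 FPKM, the survival gene Mcl1 at 77.7 ± 6.05 and 70.3 ± 1.57, and Bad at 24.0 ± 0.918 and 22.1 ± 0.804, with the Bad groups not overlapping. Of the sestrins, Sesn2 was at 16.5 ± 2.78 and 16.5 ± 1.88 FPKM and Sesn3 at 18.03 ± 0.497 and 18.2 ± 2.53. Gfral, the receptor gene of GDF15, was listed at 0 in all 6 libraries, and its coreceptor gene Ret did not exceed 0.294 FPKM.

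Of 24 secretory and structural genes of senescence, 17 were tested and none passed, with 12 positive changes and a median of 0.05. Il6, the gene of interleukin 6, was at 13.9, 17.0 and 15.2 FPKM in sham and at 18.03, 24.5 and 17.8 FPKM in infarct libraries, with no overlap, a change of 0.36, an unadjusted p of 0.0466 and an adjusted p of 1.00 by limma. Cxcl5 was at 1.09 ± 0.806 and 2.59 ± 2.21 FPKM and Igfbp4 at 19.5 ± 4.45 and 40.1 ± 36.3. Infarct library 1 alone carried the Igfbp4 difference, at 81.9 FPKM against 16.7 to 24.6 in the other 5 libraries. Il1b and Mmp12 were listed at 0 in all libraries. Lmnb1, the lamin B1 gene whose loss marks senescent cells, had 35.2 FPKM in sham library 2 and 32.6 in infarct library 1, where the remaining 4 libraries had 10.4 to 15.5, with a group change of 0.01 and a confidence interval from -1.17 to 1.19. It was named after its values were seen. The proliferation markers themselves did not pass, with 13 of 13 changes positive, beside 55.3% of all genes tested, and a median of 0.20. The sign of Mki67 depended on the scale, since its mean FPKM was 29.9 in sham and 29.2 in infarct libraries. All 13 were highest in sham library 2 and infarct library 1, so their changes are not independent of each other. The 3 with the smallest p were led by Bub1, with a change of 0.40, at 6.28 ± 3.97 and 8.0004 ± 2.82 FPKM, followed by Ccnb1 at 15.5 ± 8.27 and 19.98 ± 8.94 and Top2a at 37.2 ± 16.8 and 50.01 ± 28.5.

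**Figure D4:**
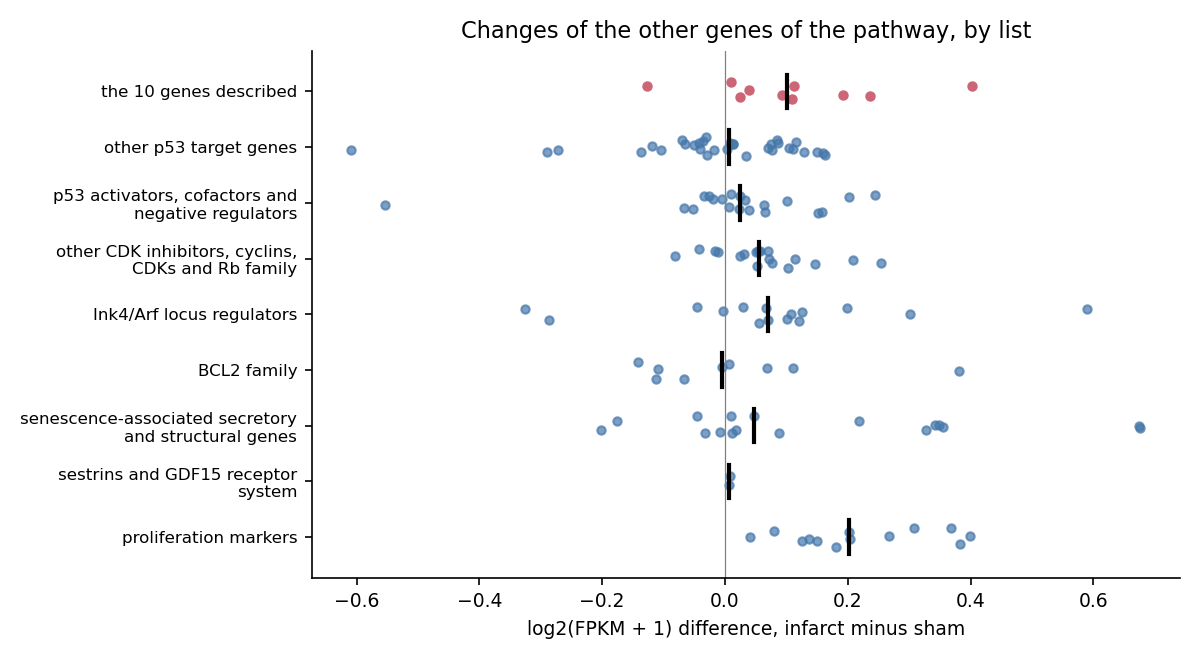
Difference of log2(FPKM + 1), infarct minus sham, of each tested gene of the 8 lists (blue points) and of the 10 genes described (red points), with black bars at the medians. Medians of the lists run from -0.0044 for the BCL2 family to 0.20 for the proliferation markers, and no gene passed the threshold.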

How the data were processed

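The table the authors deposited holds FPKM for 53460 genes, 1 column per library. Its headers also name group FPKM and the p-value and q-value of the authors' own test. Ribosomal RNA was removed and directional paired-end libraries were made, per the labels' protocols. Cuffdiff, Cufflinks, HISAT2, StringTie, SAMtools, Trimmomatic 0.36 and the build GRCm38 are listed by the submitters' processing notes, with no order. Sham columns carry the sample numbers, and infarct columns are numbered differently from the samples, so they were assigned to the group only.

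Genes too abundant to estimate (14) or failed (5) were left out, and entries of 110 repeated symbols were summed. Depth was estimated from the lowest FPKM steps in 4879 genes with 1 transcript of 2000 to 12000 nt, at a fragment length of 250 nt. Of the values at 2 to 10 fragments, 96.3% to 97.7% lay within 0.1 of a whole number, where even spread gives 20%. The steps cover counting error only. On the longest transcript, the 10 genes correspond to between 262 fragments (Gdf15) and 31964 (Ccng1) in a library, and shorter transcripts would give fewer. FPKM hold no counts, so no count test was used.

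Log2(FPKM + 1) values of the groups were compared two-sided by limma (3.58.1, under R 4.3.3) with its trend option, and the fit was tested on simulated data. Other steps used scipy 1.17.1, pandas 2.3.3, numpy 2.4.6 and matplotlib 3.10.9 under Python 3.11.15. All members were named, and from each list the genes past the threshold and the 3 with the smallest p. Members and lists were chosen with earlier results of these data known. Positions are from GENCODE M21, and promoters from RefSeq on GRCm38.p6.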

Additional observations from a re-analysis of the deposited data

How the results depend on the processing

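The alternatives were pseudocounts of 0.1 and 0.01 FPKM, no filter, a filter of 5 FPKM, no trend, quantile normalization, median scaling and leaving out each library. Under each of them limma called 0 of the 10 genes and 0 of the other genes of the pathway. No scaling moved the median change of all genes by over 0.1. Over all genes 3 were called, namely Gm10060, Gm27390 and Mmrn2, while 1 was called without a filter, 0 to 3 when single libraries were left out, and 0 without sham library 2 and infarct library 1 together. Changes near 0 turned sign: Ccng1 (-0.00015) and Bax (-0.011) with quantile normalization, Bax (-0.0059) with median scaling, and Cdkn1a (-0.014) without both libraries. Leaving out single libraries gave -0.014 to 0.031 for Bax, -0.070 to 0.11 for Ccng1, -0.039 to 0.060 for Cdkn1a, -0.051 to 0.24 for Mdm2, -0.023 to 0.26 for Trp53, 0.072 to 0.38 for Cdkn2a, 0.015 to 0.38 for Cdkn2b, 0.023 to 0.27 for Bbc3 and -0.22 to -0.032 for Sesn1. For Gdf15 they gave 0.18 to 0.57, and without infarct library 2 its unadjusted p was under 0.05. The ratio differences ran from -0.13 to 0.0065 for Bax over Bcl2, which was 0.045 without both libraries, from -0.048 to 0.10 for Cdkn2a over Cdkn2b and from -0.083 to 0.061 for Mdm2 over Trp53. The cause was not tested. With 5 libraries the number of neighbouring pairs past the threshold fell from 6 to 0, since the smallest p is then 0.0625. No paired analysis was possible because the infarct columns do not carry the replicate numbers of the samples. Depth gives Gdf15 the fewest fragments of the 10 genes in a library, 262 if the longest transcripts are assumed and fewer for shorter ones.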

Other observations

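Areg, the gene of the growth factor amphiregulin, did not pass the filter and was called in the authors' deposited table with a q of 0.00695. Infarct library 1 had 6.52 FPKM of it, and the remaining 5 had 0.134 to 0.747. Igfbp4, the other call of that table among the senescence-associated genes (q of 0.0242 in the authors' deposited table), was also high in infarct library 1 only. Among the targets of p53 named after their values were seen, from a list in which 43.8% of the genes were both highest or both lowest in sham library 2 and infarct library 1 beside 40.0% of all genes, the epoxide hydrolase gene Ephx1 was at 196 FPKM in sham library 2 and 206 in infarct library 1, against 268 to 278 elsewhere, and Ckap2, a spindle gene, at 37.4 and 44.9 against 21.9 to 26.2.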
